A study of Mus musculus with 12 samples.

Results

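The interferon-inducible GTPases Iigp1, Igtp, Tgtp1, Ifi47, Gbp2 and Gbp3 were followed across 6 tumour RNAs of the mouse. These 6 genes were taken by name out of 27670 genes or other features on the array, and they were read by 7 of its 41174 probes, since Tgtp1 had 2. The files named 5 of the 6 genes, Tgtp1 under its older name Tgtp. The Gbp3 probe (A_51_P165244) is called Gbp4 in the files, but its transcript belongs to Gbp3 in RefSeq. The names were selected on measured log2 ratios of these same arrays, so the genes' own ratios are given as a description with no test.

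NR-S1, a squamous cell carcinoma, was grown in the hind leg of male C3H/HeMsNrs mice, from where it spreads to the lung. Once the leg tumour had reached 7.5 mm it was left alone, given 8 Gy of gamma rays or given 5 Gy of carbon ions, and the radiation went to the primary tumour alone. Leg tumours were collected after 1 week and lung nodules after 2 weeks, which made 6 groups: an unirradiated, a gamma-irradiated and a carbon-irradiated primary, and a lung metastasis from each of these conditions. Laser microdissection served to take tumour cells from the tissue, and 1 amplified RNA, labelled as clone 1, stood for each group. The RNAs were hybridised in 6 pairs on two-colour arrays, each pair on 2 arrays with the dyes exchanged, for 12 arrays in all. The unirradiated primary was on 10 of the arrays, and the remaining 2 paired carbon ions with gamma rays in the primary. The radiation doses were not matched, and site and time differed together between primaries and metastases. With 1 RNA per group there was no replicate check of any difference: each SD is over the 2 arrays of a dye swap and so is technical. A gene was called higher or lower, and is said to have risen or fallen, where both dye orientations gave a log2 ratio of 1 or more, or both of -1 or less.

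Interferon-gamma binds its receptor, whose kinases set off signalling to gamma-activated sites in promoters. Interferons alpha and beta act through a complex with STAT2 and IRF9 that binds the interferon-stimulated response element, which IRF1 can bind as well. Among the genes switched on in this way are 2 families of GTPases that defend cells against microbes living in vacuoles. The immunity-related GTPases (IRGs) load onto and break such vacuoles: Iigp1, Tgtp1 and Ifi47 encode effectors that coat the membrane, and Igtp encodes a regulator that keeps effectors off the cell's own membranes. The larger guanylate-binding proteins (GBPs), Gbp2 and Gbp3 among them, gather on the damaged vacuole or on bacteria and help to set off inflammasome signalling.

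In the RefSeq gene table of GRCm38.p6, used here for the order of genes, the genes lie in clusters of relatives. Igtp lies on chromosome 11 between Gm12250 and Irgm2, and Ifi47 is the next protein-coding gene after Tgtp2 on the same chromosome. Tgtp2 is a near-identical copy of Tgtp1, and the files do not say whether the Tgtp1 probes also read it. Gbp3 and Gbp2 lie on chromosome 3 with Gbp2b between them. Promoter windows of RefSeq on GRCm38.p6, from 250 bases before to 50 after the annotated start, matched 5 of the 6 genes. They were searched on both strands for the core of the interferon-stimulated response element, which is GAAA, any 2 bases and GAAA again (on the other strand TTTC, any 2 bases and TTTC), and for the gamma-activated site TTCNNNGAA, which reads the same on both strands. The response element core was in 3.44% of all 32851 windows and the gamma-activated site in 8.3%.

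The 100 bases before the start are shown because they hold every match in the windows of these genes, with the matches, inner unspecified bases included, in capitals. Irgm2 and Tgtp2, the nearest relatives of Igtp and Tgtp1, are shown beside them.
Igtp, chr11:58199456-58199555, plus strand: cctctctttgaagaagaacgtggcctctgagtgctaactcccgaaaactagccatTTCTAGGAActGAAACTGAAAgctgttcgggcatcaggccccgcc
Irgm2, chr11:58214877-58214976, plus strand: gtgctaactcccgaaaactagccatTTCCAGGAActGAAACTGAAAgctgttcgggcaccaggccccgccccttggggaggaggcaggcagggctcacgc
Tgtp1, chr11:48992247-48992346, minus strand: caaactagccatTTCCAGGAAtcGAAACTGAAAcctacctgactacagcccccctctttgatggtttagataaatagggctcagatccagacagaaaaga
Tgtp2, chr11:49064213-49064312, minus strand: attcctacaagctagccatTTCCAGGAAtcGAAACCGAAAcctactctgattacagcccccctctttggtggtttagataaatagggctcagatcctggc
Gbp2, chr3:142620563-142620662, plus strand: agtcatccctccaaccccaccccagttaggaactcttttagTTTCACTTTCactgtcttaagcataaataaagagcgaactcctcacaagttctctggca
Gbp3, first start, chr3:142559944-142560043, plus strand: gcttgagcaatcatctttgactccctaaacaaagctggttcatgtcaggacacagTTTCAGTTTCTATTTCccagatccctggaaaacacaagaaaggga
Ifi47, chr11:49076487-49076586, plus strand: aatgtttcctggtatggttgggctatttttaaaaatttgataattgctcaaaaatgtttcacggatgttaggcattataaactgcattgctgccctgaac

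Igtp, Irgm2, Tgtp1 and Tgtp2 shared one arrangement, a gamma-activated site followed after 2 unspecified bases by a response element core. The core began 34 bases before the start in Igtp, 64 in Irgm2, 77 in Tgtp1 and 70 in Tgtp2. Both elements in this order and at this distance, on either strand, were in 5 of the 32851 windows, or 0.0152%. The fifth belonged to Gm12185, also on chromosome 11. This arrangement was searched for after it had been seen in Igtp, so the share describes the windows and tests nothing. Gbp2 had a single core in reverse, beginning 59 bases before the start, and Gbp3 had, before its first annotated start, 2 overlapping cores in reverse at 45 and 39 bases. The second annotated start of Gbp3 and the only window of Ifi47 held none of these letters.

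**Figure D1:**
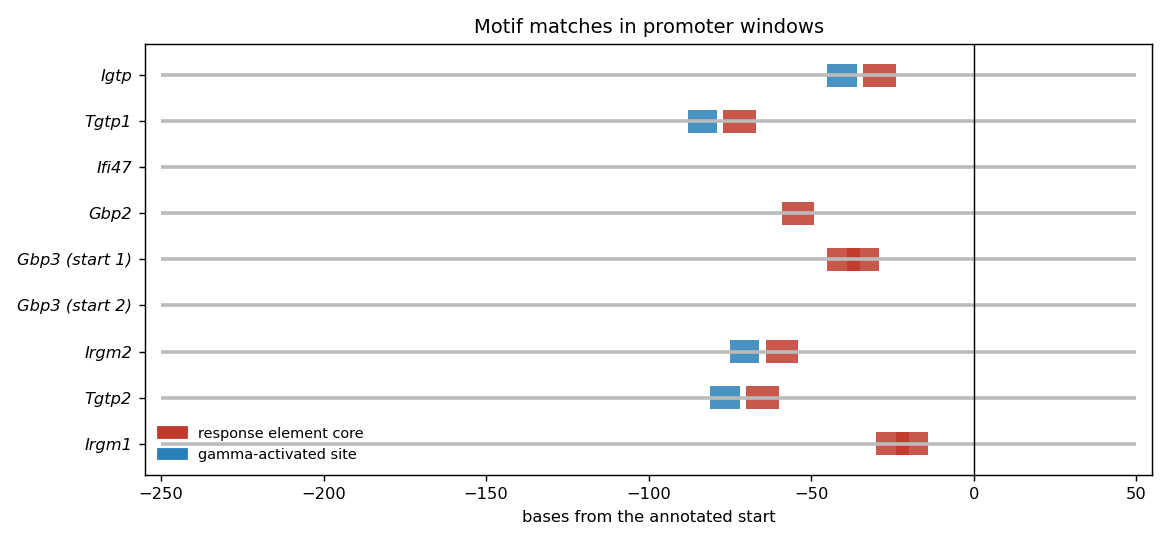
Each line is a promoter window, with distance in bases from the annotated start on the horizontal axis, red blocks for response element cores and blue blocks for gamma-activated sites. The blue and red blocks stand in the same order and at the same distance from each other in Igtp, Tgtp1, Irgm2 and Tgtp2, and the windows of Ifi47 and of the second Gbp3 start are empty.

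In each channel 53.8% to 68.8% of the spots passed the scanner software's test for being well above background. Median signals lay between 93.1 and 147 scanner units, over a local background of 43 to 62. The number of arrays limits the precision. The laser-cut RNAs held transcripts of other cells, and with such mixed samples fewer cells of a type and less RNA per cell cannot be told apart. Of 14 lung epithelium markers, 13 to 14 were higher in each metastasis than in the unirradiated primary, whereas the median log2 ratio of the squamous cell markers lay between -0.21 and 0.13 in all 5 comparisons with that primary. Of 16 skeletal muscle markers, 15 to 16 were lower in the metastases, 15 in the gamma-irradiated primary and 5 in the carbon-irradiated primary. Among macrophage markers, 13 of 14 were higher in the unirradiated metastasis, with a median of 1.71, while 0 of 14 were called after gamma rays and 1 after carbon ions in the primaries. Of all measured genes, 8.21% to 10.4% were called higher and 1.03% to 1.69% lower in the metastases than in the unirradiated primary. In the primary, 2.23% were called higher and 1.25% lower after gamma rays, and 3.9% and 1.07% after carbon ions. The values for T and NK cell markers stand beside the results below.

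All 6 GTPases were lowest in the unirradiated primary and highest in the carbon-irradiated primary, with the unirradiated metastasis second. In the primary tumour they were at least 8.09-fold higher after gamma rays and at least 20.5-fold higher after carbon ions, at the smallest ratio, that of Gbp2. In the metastases the direction was the opposite: after irradiation of the primary, all 6 had lower values than in the unirradiated metastasis. Of all genes measured in the primary after gamma rays, 2.23% were called higher and 1.25% lower, and all 6 were among the higher. After carbon ions 3.9% of all genes were called higher and 1.07% lower, and again all 6 were higher. The median log2 ratio of the 6 was 4.26 after gamma rays and 5.61 after carbon ions, beside 0.02 over all measured genes in both comparisons. The choice of the genes used these contrasts, so nothing is read from the counts.

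**Figure D2:**
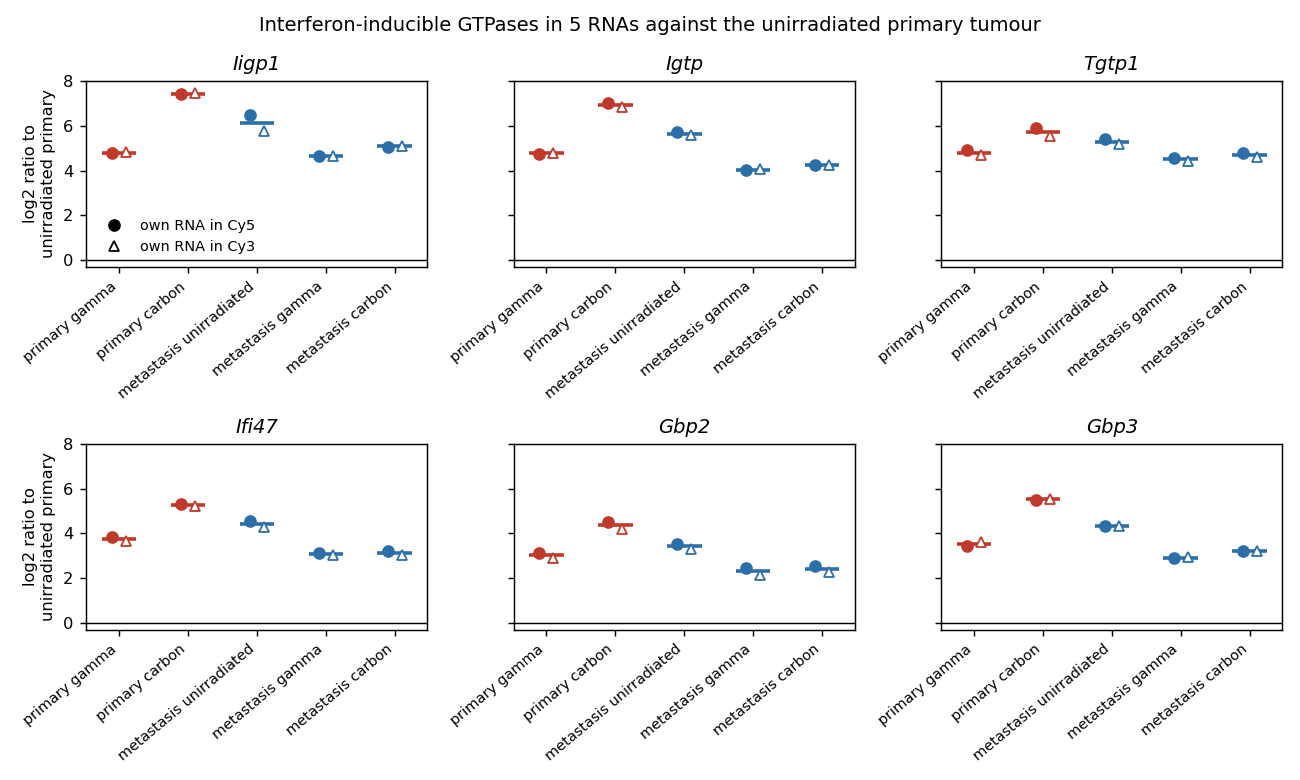
Each panel shows a gene, and each point is the log2 ratio of an RNA to the unirradiated primary on 1 array, with filled circles for the array whose Cy5 channel held the named RNA, open triangles for the dye-exchanged array and bars for their mean; red marks primaries and blue metastases. In every panel the carbon-irradiated primary is highest and the unirradiated metastasis second, and Iigp1 reaches 7.44.

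Among the effectors, Iigp1 (Irga6 in the newer naming) had the highest ratios. Its signal in the unirradiated primary was faint, from 27.4 to 47.5 scanner units in Cy3 and from 67.6 to 189 in Cy5 over the 5 arrays of each dye, though well above background on all 10. After gamma rays the signal in the primary was 2669 units in Cy3 and 4524 in Cy5 on the arrays shared with the unirradiated primary, and after carbon ions it was 18380 and 34385. The log2 ratio was 4.77 and 4.84 in the 2 orientations after gamma rays, 27.9-fold with an SD of 0.05 on the log2 scale. After carbon ions it was 7.41 and 7.47, or 174-fold with an SD of 0.04, the highest ratio of all genes measured in that comparison. In the unirradiated metastasis Iigp1 gave 6.47 and 5.76, the widest gap between orientations of the 6 genes, with a mean of 6.11. The other metastases were lower, at 4.63 and 4.67 after gamma rays and at 5.04 and 5.12 after carbon ions. The offset added before taking logs pulls such faint denominators up: without it the mean ratios were 5.58 for gamma rays, 8.11 for carbon ions and 6.78 for the unirradiated metastasis.

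Tgtp1 (Irgb6), another effector, rose by nearly as much after gamma rays but by less after carbon ions on the arrays with the unirradiated primary. Its brighter probe (A_52_P676510) read 4.90 and 4.68 after gamma rays, 5.88 and 5.54 after carbon ions and 5.39 and 5.18 in the unirradiated metastasis. The metastases after gamma rays read 4.58 and 4.43, and those after carbon ions 4.80 and 4.60. The means of this probe ran from 4.51 to 5.71 over these 5 RNAs. The second probe (A_51_P478722) was far dimmer. In the unirradiated primary it passed as well above background on 0 of 5 arrays in Cy3 and 1 of 5 in Cy5, the latter beside the metastasis after gamma rays. Its other ratios are therefore bounds: at least 2.11-fold after gamma rays, 7.91-fold after carbon ions and 2.45-fold in the unirradiated metastasis. Both probes placed the carbon-irradiated primary highest.

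Ifi47 (Irgd) is also an effector, and the only gene of the 6 with a searched window but no match in it. It read 3.85 and 3.64 after gamma rays and 5.30 and 5.20 after carbon ions in the primary. The unirradiated metastasis gave 4.55 and 4.28. The metastases after irradiation of the primary gave 3.1 and 3.03 for gamma rays and 3.23 and 3.02 for carbon ions. These 2 pairs of values overlap. Without the offset the means rose from 3.75 to 4.40 for gamma rays and from 5.25 to 5.67 for carbon ions, since Ifi47 too was faint in the unirradiated primary, at 36.3 to 91.5 units in Cy3.

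Igtp (Irgm3), the regulator, had the brightest signal in the carbon-irradiated primary, up to 100534 scanner units in Cy5 against 452 to 968 in the unirradiated primary. The log2 ratio was 4.73 and 4.80 after gamma rays and 7.04 and 6.83 after carbon ions, a mean of 6.94 or 122-fold, the highest but 1 of all genes measured there. In the unirradiated metastasis it was 5.72 and 5.57. It was 4.02 and 4.06 in the metastasis after gamma rays and 4.23 and 4.26 after carbon ions. These 2 metastases were close to each other and apart from the rest.

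The GBPs mostly had smaller ratios than the IRGs, though Gbp3 was above Ifi47 after carbon ions in both sites. Gbp2 read 3.13 and 2.90 after gamma rays, 4.50 and 4.21 after carbon ions and 3.54 and 3.28 in the unirradiated metastasis. In the metastases after gamma rays and carbon ions it read 2.46 and 2.15, and 2.54 and 2.29, the lowest ratios of the 6 genes in every RNA. Gbp3 repeated closely between orientations except after gamma rays, where its SD was 0.13. It was at 3.42 and 3.61 after gamma rays, 5.50 and 5.53 after carbon ions and 4.31 and 4.34 in the unirradiated metastasis. The metastases after irradiation of the primary read 2.89 and 2.92 for gamma rays and 3.20 and 3.23 for carbon ions. At 5.52 after carbon ions its mean stood between those of Tgtp1 and Ifi47.

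The order of the RNAs below the top 2 differed little between the genes. In Igtp, Gbp3, Gbp2 and Ifi47 the gamma-irradiated primary came next, followed by the metastasis after carbon ions and the metastasis after gamma rays. The gaps that did not exceed the SDs of the neighbours were those between the metastases after carbon ions and gamma rays for Ifi47 (0.06) and Gbp2 (0.11). For Tgtp1 neither the gamma-irradiated primary and the metastasis after carbon ions (0.09) nor the latter and the metastasis after gamma rays (0.20) were apart. Iigp1 alone had the metastasis after carbon ions in that place, 0.27 above the gamma-irradiated primary.

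Carbon ions and gamma rays were compared directly on 2 arrays, at 5 Gy and 8 Gy. All 6 genes were higher after carbon ions in both orientations, where 0.884% of all measured genes were called higher and 0.16% lower. Skeletal muscle markers were also higher after carbon ions, 10 of 16 with a median of 1.27, and of 15 measured T and NK cell markers 2 were; their part in the GTPase ratios was not tested. The direct log2 ratios were 2.96 and 3.16 for Iigp1, 2.98 and 2.93 for Igtp and 2.41 and 2.48 for Tgtp1. They were 2.04 and 1.97 for Ifi47, 2.21 and 2.08 for Gbp2 and 1.95 and 2.11 for Gbp3. As folds these were 4.02 for Ifi47, the smallest, to 8.34 for Iigp1, the largest. Iigp1 and Igtp stood at places 2 and 3 from the top of the 15038 measured genes. The second Tgtp1 probe, above background in both RNAs, gave 2.10 and 1.70.

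The same difference can be taken through the unirradiated primary, as the ratio after carbon ions minus that after gamma rays, and this route gave a lower mean for all 6 genes, by 0.03 for Gbp3 and by 0.42 to 1.52 for the others. Iigp1 was 2.64 by that route and Igtp 2.17. Gbp2 was 1.34 and Ifi47 1.50. Tgtp1 was 0.92, which lay 1.52 below its direct value, while Gbp3 was 2.00 by that route and 2.03 directly. Over the 14831 genes measured on all 6 arrays involved, direct and indirect values differed with an SD of 0.0673, and 20 genes, or 0.135%, differed by at least 0.4 in size. Tgtp1 had the highest excess of the direct over the indirect value of all these genes. Gbp2 was at place 7, Igtp at 9, Ifi47 at 14 and Iigp1 at 19, and the relatives Gbp4 (1.09), Gbp2b (0.93), Irgm2 (0.83) and Gbp8 (0.44) were also among the top 20. Gbp3 was at place 1992. The second Tgtp1 probe differed by -0.01, with 1.90 directly and 1.91 indirectly. Without the offset the excess of the brighter Tgtp1 probe was 1.78, and by the scanner software's own log ratios it was 1.94.

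**Figure D3:**
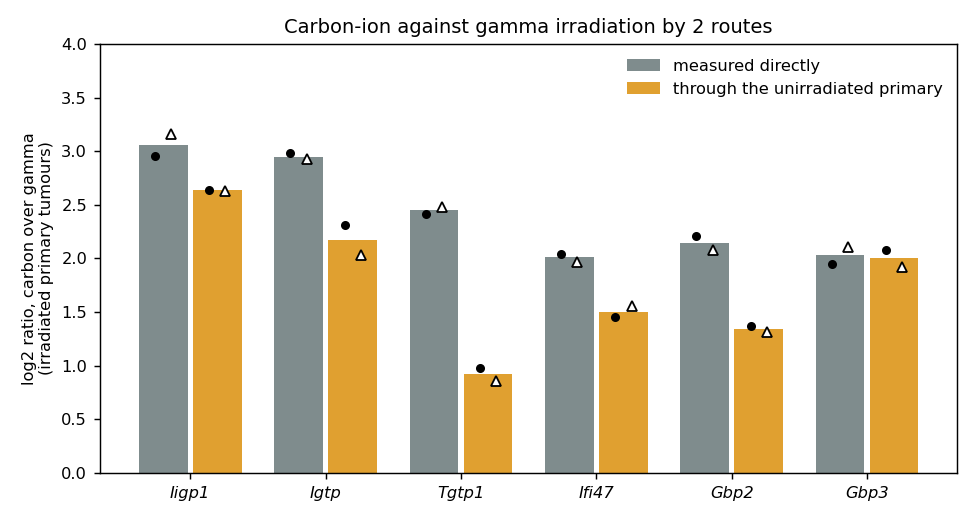
Bars give the mean log2 ratio of carbon-ion over gamma-ray irradiation in primary tumours, grey where both RNAs shared an array and orange where it was taken through the unirradiated primary; circles and triangles are the 2 dye orientations. The bars of Gbp3 are level at 2.03 and 2.00, whereas those of Tgtp1 stand at 2.45 and 0.92.

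The signals of each RNA were then compared between the arrays that held it. For the irradiated primaries, ratios are the signal beside the unirradiated primary over that beside the other irradiated primary. For Tgtp1 the carbon-irradiated primary gave similar signals beside both of its partners, with ratios of 0.994 in Cy5 and 1.08 in Cy3. The gamma-irradiated primary gave ratios of 0.961 and 1.23 for Tgtp1. Its ratios were less even for Igtp, at 1.06 and 1.67, Iigp1, at 1.19 and 1.33, and Gbp3, at 1.18 and 1.27. For Igtp, Iigp1 and Gbp3 its signal was thus lower beside carbon, the brighter partner. The unirradiated primary, the same RNA throughout, gave 1014 units in Cy5 and 336 in Cy3 beside the carbon-irradiated primary, but 157 to 302 and 70.6 to 120 beside the other 4 RNAs. Beside carbon its signal was thus 4.39 and 3.03 times that beside gamma. For Gbp2 these ratios were 2.28 and 1.73, for Ifi47 1.83 and 1.66 and for Igtp 2.03 and 1.16. For Iigp1 they were 1.54 and 0.981, though its highest Cy5 reading, 189 units, was not beside carbon, where it read 119. For Gbp3 the ratios were 1.1 and 0.777. Over all genes well above background the median was 1.01 in Cy5 and 0.951 in Cy3, and 95% of genes lay below 1.16 and 1.05, as Gbp3 did in both dyes. The lowest 5% of genes lay below 0.852 in Cy5 and 0.775 in Cy3, so Gbp3 was near the lower edge in Cy3. The reading of the unirradiated primary was thus highest for Tgtp1, Igtp, Ifi47 and Gbp2 where its partner was brightest. Lung epithelium markers did the same: their summed signal in the unirradiated primary was 62069 to 81964 units in Cy5 beside the 3 metastases and 3418 to 3498 beside the irradiated primaries. In Cy3 the gap was smaller, with 7859 to 9327 units beside the metastases and 1922 to 2179 beside the irradiated primaries. The part of this in the ratios was not tested. The direct arrays held no unirradiated RNA, but on them the gamma-irradiated primary read lower for Igtp, Iigp1 and Gbp3, as given above.

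**Figure D4:**
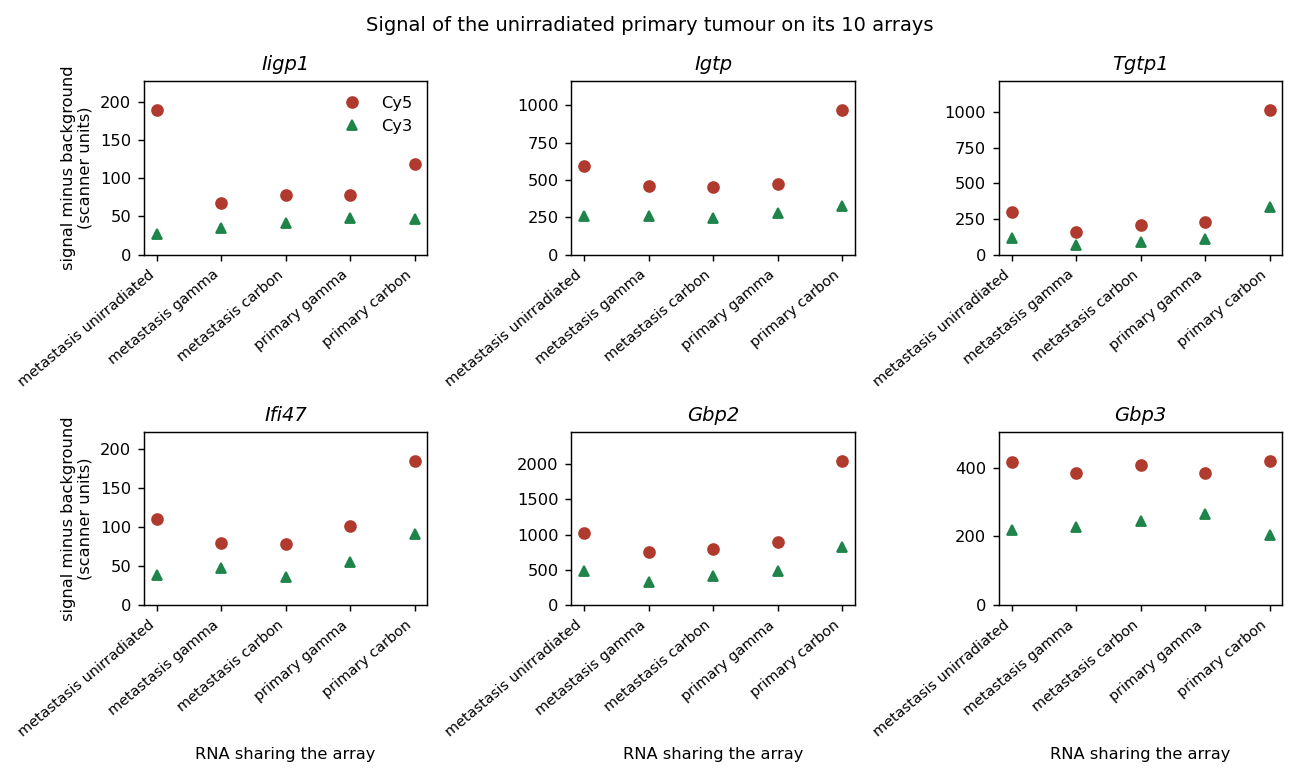
Points are the background-subtracted signal of the unirradiated primary for each gene on the 10 arrays that held it, by the RNA that shared the array, in Cy5 (red circles) and Cy3 (green triangles); each panel has its own scale from 0. Tgtp1 stands at 1014 in Cy5 beside the carbon-irradiated primary and at 302 or less elsewhere, and Gbp3 stays between 383 and 420 in Cy5.

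In the lung, the 3 metastases were compared through the unirradiated primary. The SDs of such differences leave out dye error and are smaller for that reason. Relative to the unirradiated metastasis, 5 of the 6 genes fell in the metastasis after gamma rays, where 1.4% of all genes were called lower and 1.84% higher. Igtp fell by 1.61 ± 0.13 on the log2 scale and Iigp1 by 1.46 ± 0.53 (SD, n = 2 arrays). Gbp3 fell by 1.42, Ifi47 by 1.35 and Gbp2 by 1.11, while Tgtp1 was at -0.78 and not called. The orientations of Iigp1 were far apart, at -1.84 and -1.09, and its call was lost with an offset of 0 or 16, by the scanner software's log ratios and by the deposited table, which left 4 of the 6. The metastasis after carbon ions had 3 of the 6 genes called lower, where 2.36% of all genes were, with 1.84% higher: Igtp fell by 1.40, Ifi47 by 1.28 and Gbp3 by 1.12. Iigp1 at -1.03 ± 0.56, Gbp2 at -1.0 and Tgtp1 at -0.59 were not called. The count of 3 became 5 with scaling between arrays or from the Cy5 orientation alone, and 2 by the scanner software's log ratios. The second Tgtp1 probe was close to the brighter one, at -0.87 and -0.52.

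Between the metastases after carbon ions and after gamma rays 0 of the 6 were called, while 0.239% of all genes were higher after carbon ions and 1.07% lower. The differences ran from 0.06 for Ifi47 to 0.43 for Iigp1, all with the higher mean after carbon ions. Set against the primary of the same treatment, the metastasis after gamma rays had values from -0.73 for Igtp to -0.16 for Iigp1 with 0 of 6 called, where 0.902% of all genes were lower and 7.77% higher. With scaling between arrays, all 6 were called lower in this comparison, from -2.03 for Igtp to -1.5 for Gbp2, beside 1.06% of all genes. After carbon ions 5 of the 6 fell from primary to metastasis, where 1.92% of all genes were lower and 6.84% higher. Igtp fell by 2.69, Iigp1 by 2.36, Gbp3 by 2.30, Ifi47 by 2.12 and Gbp2 by 1.94, whereas Tgtp1 was at -1.01, and at -2.21 by its second probe. In the unirradiated condition the metastasis was the higher of the sites, where 10.4% of all genes were called higher and 1.69% lower, and all 6 GTPases were among the higher. Against that same primary, all 6 were also higher in the metastases after gamma rays, where 8.82% of all genes were higher and 1.1% lower, and after carbon ions, where these shares were 8.21% and 1.03%.

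Of the relatives of these genes, Irgm1, Irgm2 and the 7 other GBPs on the array were also highest in the carbon-irradiated primary. Irgm1 and Irgm2, regulators of the same kind as Igtp, rose in all 5 RNAs relative to the unirradiated primary: Irgm2 by 3.03 after gamma rays, 4.37 after carbon ions and 3.70 in the unirradiated metastasis, and Irgm1 by 2.28, 3.66 and 2.95. A dimmer Irgm1 probe gave 2.46, 4.16 and 3.18 in these RNAs, and the last was not well above background on any array. Irgq, an IRG relative that interferon does not induce, lay between -0.12 and 0.22, and Irgc1 was not well above background. The IRG relatives Gm5431 and 9930111J21Rik2 were at 0.22 and 0.37 in the unirradiated metastasis, and neither was called. Against the unirradiated primary they were not measured in either irradiated primary. All 7 other GBPs on the array rose in both irradiated primaries. After gamma rays Gbp2b rose by 2.28, Gbp7 by 2.24, Gbp4 by 2.03 and Gbp9 by 1.87, while Gbp5, Gbp6 and Gbp8, at background in the unirradiated primary, were at least 3.6-fold, 3.9-fold and 2.05-fold higher. After carbon ions Gbp9 rose by 4.33, Gbp7 by 4.14, Gbp8 by 3.55, Gbp2b by 3.54 and Gbp4 by 3.0, and Gbp5 was at least 17.8-fold higher. Gbp6 was at 4.79, with the unirradiated primary above background on 1 of the 2 arrays. Relative to the unirradiated metastasis Gbp5, Gbp6, Gbp7 and Gbp8 fell after both kinds of radiation, Gbp6 by 1.92 after gamma rays and 1.68 after carbon ions. Gbp9 was at 2.97 in the unirradiated metastasis and at 2.65 and 2.58 in the others. Its dimmer probe read 1.94, 0.57 and 0.70 there, so its probes disagree there; for the latter values the unirradiated primary was at background.

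Other interferon-inducible GTPases were also called. By their brightest probes Mx1 and Mx2, antiviral dynamin-like proteins, and Gvin1, a very large GTPase, rose in all 5 RNAs. In the primaries they rose by 1.51, 1.42 and 1.75 after gamma rays and by 2.25, 2.95 and 2.43 after carbon ions. A dimmer Mx1 probe, with the unirradiated primary at background, read 0.75 and 1.27 in these primaries. In the metastases it read 0.77 without radiation, 0.92 after gamma rays and 0.69 after carbon ions. Directly between carbon ions and gamma rays Mx2 was called, at 1.55, while Mx1 was at 0.74 and Gvin1 at 0.73. The probes of Gvin1 disagree: both dimmer ones, above background on every array, gave higher ratios, at 2.53 and 2.64 after gamma rays, 3.58 and 3.85 after carbon ions and 1.04 and 1.25 directly. Dynamins and atlastins are membrane GTPases that interferon is not known to induce. Of the 9 to 10 measured, 0 were called in each of the 11 comparisons. Over all measured genes the shares called higher or called lower ran from 0.16% to 10.4% there, so nothing is read from this count.

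**Figure D5:**
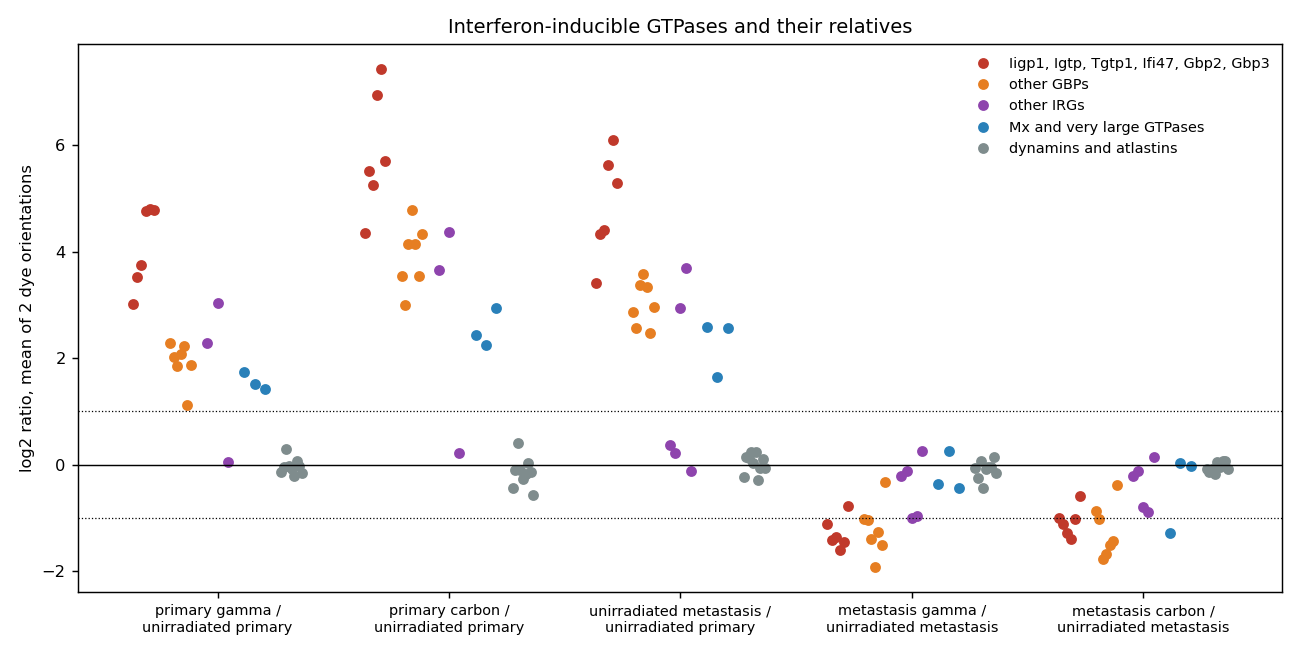
Points are genes, placed by their mean log2 ratio over 2 dye orientations in 5 comparisons and coloured by family; dotted lines mark ratios of 1 and -1. The 6 genes (red), the other GBPs (orange) and 2 other IRGs (purple) lie above 1 in the first 3 comparisons and mostly near or below -1 in the last 2, while dynamins and atlastins (grey) stay near 0.

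Upstream of these genes, interferon-gamma itself (Ifng) was the only ligand of 8 on the array that was measured against the unirradiated primary. The unirradiated primary did not show Ifng above background, so its ratios there are bounds: at least 7.41-fold higher in the unirradiated metastasis, 5.18-fold after carbon ions and 1.92-fold after gamma rays in the primary. It was at least 1.62-fold and 1.88-fold higher in the metastases after gamma rays and carbon ions. Directly, carbon ions over gamma rays gave 1.32 ± 0.18 on the log2 scale. From the unirradiated metastasis Ifng fell by 2.20 after gamma rays and by 1.85 after carbon ions. The interferon alpha, beta, kappa, epsilon and lambda genes on the array had no comparison with the unirradiated primary in which they were measured.

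Of 6 interferon receptors 0 were called in the irradiated primaries, with Ifngr1 at 0.72 after gamma rays and 0.56 after carbon ions. The shares of all measured genes called higher there were 2.23% and 3.9%. In the unirradiated metastasis, where 10.4% of all measured genes were called higher, Ifngr2 rose by 1.13 and Il10rb by 1.48. The receptor kinases Jak1, Jak2 and Tyk2 lay between -0.10 and 0.49 against the unirradiated primary. Transcription factors had larger ratios. Batf2, a factor that works with IRF1, rose by 2.11 after gamma rays, 4.19 after carbon ions and 3.51 in the unirradiated metastasis, and by 2.40 directly between carbon ions and gamma rays. In the metastases after irradiation of the primary it fell by 1.79 and 1.24. Irf1 rose by 1.14 after gamma rays and 1.94 after carbon ions, Irf7 by 2.16 and 3.16, Irf9 by 1.70 and 2.58 and Stat2 by 1.24 and 2.55.

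The feedback inhibitor Usp18, which cleaves ISG15 from proteins and damps interferon alpha and beta signalling, rose by 2.60 after gamma rays, 3.57 after carbon ions and 3.43 in the unirradiated metastasis. Socs1, an inhibitor of the receptor kinases, rose by 1.22 after carbon ions and was at 0.63 after gamma rays. Of 14 autophagy and ubiquitin genes, whose proteins work with the GTPases at the vacuole, 2 were called in each irradiated primary. Over all measured genes 2.23% were called higher after gamma rays and 3.9% after carbon ions. The 2 called genes were Trim21, a ubiquitin ligase, at 1.41 and 2.52, and Map1lc3a, which encodes an LC3 protein, at 1.03 and 1.30. Among inflammasome genes 0 of 6 measured were called after gamma rays. After carbon ions 2 of 6 were, Il18 at 1.25 and Casp1 at 1.40, the latter named for this count after its value was seen.

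Other genes of interferon responses give the setting. Over all measured genes, 2.23% were called higher in the primary after gamma rays and 3.9% after carbon ions. Of 11 measured defence and antigen presentation genes under interferon-gamma, 6 rose after gamma rays and 8 after carbon ions. Cxcl9, a chemokine for T cells, rose by 4.36 and 5.16, Cxcl10 by 3.56 and 5.52 and Ciita, the master regulator of class II antigen presentation, by 1.5 and 3.08. In the metastases after irradiation of the primary Cxcl9 fell by 1.97 and 1.42 and Cxcl10 by 2.29 and 2.04, for gamma rays and carbon ions. Ciita was at 0.42 and 0.07 there. Of 15 genes typical of interferon alpha and beta, 10 rose after gamma rays and 13 after carbon ions. Rtp4 rose by 3.58 and 4.98, Ifit1 by 2.45 and 4.45 and Ifi44 by 2.72 and 4.31. Of these 15, 3 fell in the metastasis after gamma rays and 1 after carbon ions, where 1.4% and 2.36% of all measured genes fell.

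In the primary, markers of T and NK cells, the main makers of interferon-gamma, had medians of 0.99 after gamma rays and 1.27 after carbon ions. Called higher were 5 of 14 measured markers after gamma rays and 9 of 16 after carbon ions. Over all measured genes these shares were 2.23% and 3.9%. Il2rb rose by 1.42 and 2.43 and Cd3g by 1.58 and 1.86. The summed Cy5 signal of the 18 markers on the array, Ifng among them, was 1729 to 2194 units in the unirradiated primary, 3656 to 3702 after gamma rays and 6461 to 6533 after carbon ions. Cd4 and Ncr1, which define helper T cells and NK cells, were not well above background in either irradiated primary. Against the unirradiated metastasis the median marker was at 0.06 after gamma rays and -0.56 after carbon ions. In the lung the sum was 11544 in the unirradiated metastasis, 15366 after gamma rays and 6917 after carbon ions. Other cell types differed between the metastases too, here in the order unirradiated, gamma rays and carbon ions. The Cy5 sums were 473085, 369968 and 377170 for macrophage markers, 82725, 45962 and 51277 for endothelial markers and 137747, 91209 and 95951 for fibroblast markers. For B cell markers they were 5122, 21244 and 3843, and 6 of 8 rose after gamma rays, beside 1.84% of all measured genes. Such sums weigh bright genes most, and single markers did not all move with them. Of the fibroblast markers Pdgfra alone was called after gamma rays against the unirradiated metastasis, at -1.13, while Dcn was at 0.61. In the primaries the macrophage sum was 84258 to 94214 without radiation, 86538 to 91236 after gamma rays and 99788 to 100080 after carbon ions. Most neutrophil markers fell in the lung, 8 of 10 after gamma rays and 9 of 10 after carbon ions. Of all measured genes 1.4% and 2.36% fell there. In the primary after carbon ions 4 of 7 fell, S100a9 by 1.41 among them, beside 1.07% of all measured genes. Ltf, another neutrophil marker, went the other way. It rose by 1.25 and 2.07 in the lung and by 2.51 and 1.89 in the primary, for gamma rays and carbon ions. Lung epithelium markers summed to 3418 to 3498 units in the unirradiated primary beside the irradiated primaries, to 9883 to 10257 after gamma rays and to 20688 to 20961 after carbon ions. Of these markers 1 was called in either irradiated primary, Cyp2f2, which rose by 4.14 and 4.54 and by 1.2 directly, and 8 of 14 were not above background there in Cy5. The part of these cells in the GTPase ratios was not tested.

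Outside the lists, the genes most like the 6 in pattern were found as those with the smallest root mean square difference from the mean of the 6 over the 5 RNAs compared with the unirradiated primary, among 15005 genes measured in all of them. The mean of the 6 was 4.11 and 5.87 in the primaries after gamma rays and carbon ions and 4.87, 3.58 and 3.8 in the metastases after no radiation, gamma rays and carbon ions. The nearest was Ifi27l2a, an interferon-induced gene, at a difference of 0.59, at 4.27 and 5.19 in the primaries and 4.78, 4.49 and 4.47 in the metastases. Aldh1a1, a retinal dehydrogenase, followed at 1.06, then Oasl2 at 1.28 and Oas1f at 1.34. The rest of the nearest 10 were AW112010, H2-DMb1, Serpina3g, Irx1, Zbp1 and Plac8, at 1.46 to 1.76. The 6 genes themselves differed from their mean by 0.53 (Ifi47) to 1.35 (Gbp2), so Ifi27l2a was nearer to the mean than Igtp, Tgtp1, Iigp1 and Gbp2 were. This measure weighs the size of the ratios, and the order of the RNAs was not the same in all 10. The carbon-irradiated primary was highest in Ifi27l2a, Oasl2, Oas1f, H2-DMb1 and Zbp1, but not in Aldh1a1, AW112010, Serpina3g, Irx1 and Plac8. Aldh1a1 was at 4.09 there and at 4.58 in the metastasis after gamma rays. These genes were high in the same 5 RNAs, and with 1 RNA per group this cannot be told apart from anything else those RNAs share.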

How the data were processed

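Gene expression was measured on 12 two-colour Agilent mouse arrays (design 014868), scanned and quantified with Feature Extraction 9.1.3.1 under protocol GE2-v5_91_0806, per the file headers. The deposited intensity values are mean spot signals and median local backgrounds without normalization. The deposited log10 ratios and their p-values come from Feature Extraction's own background and dye correction, per the file headers, and the authors' table of log10 values equalled those ratios within 0.005, with column medians of 0. The direction of each ratio follows the dyes in the labels.

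The software was R 4.3.3, with the packages data.table (1.17.8) and limma (3.58.1). Ratios came from normexp background correction with an offset of 50, which pulls faint ratios toward 0, then loess within each array with control spots at weight 0. No spot was saturated (0 of 43379 on any array), and 16 to 58 outlying spots per array were left out. Spots of a probe were averaged, and where a gene had several probes the brightest stood for it. A gene counts as measured if, on each array of a comparison, either RNA or both passed as well above background. Later steps used Python 3.11.15, numpy 2.4.6, pandas 2.3.3 and matplotlib 3.10.9.

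The 11 comparisons were 6 direct ones and 5 through the unirradiated primary, which those 5 share. The labels give 1 RNA per group, so no p-value was computed. The 3 slides held 4 arrays each, with both arrays of every dye swap on the same slide. Slide 1 held the unirradiated and gamma-group metastases, and slide 2 the carbon-group metastasis and the gamma-irradiated primary beside the unirradiated primary. Slide 3 held both comparisons of the carbon-irradiated primary. Carbon against gamma through the unirradiated primary, and that primary's signal beside carbon over beside gamma, thus crossed slides. Slide and comparison cannot be told apart there. The call rule was tried on simulated data whose changes lay well beyond the threshold and on brighter probes alone. It was therefore not tried on changes near the threshold or on faint probes. Bounds divide the brighter RNA by the higher of the dim probe's own level and the lowest level that is well above background on that array. Probes were named through the RefSeq table of GRCm38.p6 by accession for 22944 probes, by symbol for 6664 and by an older symbol for 3108; the other 8458 are called as in the files. The 6 genes, all lists and the rules were chosen with earlier results of these data known. Named from each list were up to 3 genes called in most direct comparisons, every called GTPase relative, upstream genes as needed, up to 2 markers per cell type, and the 10 genes nearest in pattern. A gene of the lists that the rule names is not reported here.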

Additional observations from a re-analysis of the deposited data

Results flagged for a closer look

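The effect of irradiating the primary differed by site for all 6 GTPases and both kinds of radiation. Every array of the primary comparison lay opposite in sign to every difference between metastases. The difference between sites was not tested, since each group has 1 RNA, and the metastases were taken at 2 weeks and the primaries at 1 week. For gamma rays the log2 effect in the primary and in the metastasis was 4.80 and -1.46 for Iigp1, 4.77 and -1.61 for Igtp, and 4.79 and -0.78 for Tgtp1. Ifi47 had 3.75 and -1.35, Gbp2 3.02 and -1.11, and Gbp3 3.52 and -1.42. For carbon ions the effects were 7.44 and -1.03 for Iigp1, 6.94 and -1.40 for Igtp, and 5.71 and -0.59 for Tgtp1. Ifi47 had 5.25 and -1.28, Gbp2 4.35 and -1.0, and Gbp3 5.52 and -1.12. All of these use the unirradiated primary as the common partner.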

How the results depend on the processing

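The alternatives were an offset of 0 or 16, the scanner software's log ratios, the deposited table, median centring, scaling between arrays, no filter or a stricter filter on dim probes, the mean of all probes, single dye orientations and a log2 threshold of 2. Under each of these except the last, 6 of the 6 genes were called higher in the 6 direct comparisons. At a threshold of 2 this count was 6 against the unirradiated primary and 4 for carbon ions against gamma rays. At the threshold of 1, carbon ions against gamma rays taken through the unirradiated primary gave 5, with Tgtp1 at 0.92. Of the values of single genes under the alternatives other than the threshold of 2, 710 kept their side of the threshold, 7 lost a call, 15 gained one and none changed sign among called values. At the threshold of 2, 0 genes were lower in the metastasis after gamma rays and 0 after carbon ions, in place of 5 and 3. For carbon ions the count was 5 with scaling between arrays and 5 in the orientation with Cy5 alone. With scaling, 6 in place of 0 were lower in the metastasis than in the primary after gamma rays. In the metastases Iigp1 lost its call after gamma rays with the offset at 0 (-1.32) or 16 (-1.37), by the scanner's log ratios (-1.24) and by the deposited table (-1.25), and Ifi47 lost its call after carbon ions by the last 2 (-1.07 and -1.08). The cause was not tested. No paired analysis was possible because every group has the same single replicate number, and leaving out a replicate was not possible for the same reason. Depth and number of arrays limit what can be said of genes near background in the unirradiated primary, above all the second Tgtp1 probe.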
